A study of Equus caballus with 45 samples.

Results

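Synoviocytes are the cells of the lining of the joint, most of them fibroblasts that make the hyaluronan and lubricin of joint fluid, and in arthritis they answer IL-1β and TNF-α with cytokines, prostaglandin E2 and enzymes that break down cartilage matrix. Mesenchymal stromal cells (MSC) are tested as a treatment of joint disease because the factors they secrete can temper such cells. TLR3 is the endosomal receptor of double-stranded RNA, and poly I:C, a synthetic double-stranded RNA, sets off interferon and NF-κB signalling in cells that carry it. The comparison described here asks whether synoviocytes under IL-1β and TNF-α differ in their RNA when they receive conditioned medium (CM) of poly I:C-activated MSC (TLR-MSC-CM) in place of CM of resting MSC.

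The comparison holds 6 of the 45 libraries of the series, chosen by their labels, with 1 library per MSC donor in each group (n = 3 against 3). All 6 come from synoviocytes of 1 horse, taken from the femoropatellar synovium, grown to passage 2 and thawed for use. The age of this horse is not given in the sources used here. Every well received IL-1β and TNF-α (20 ng/mL each) and MSC-CM, mixed as 1 part CM to 3 parts complete medium. The study's methods describe no wash between the cytokines and the CM, while its abstract has 2 h of cytokines and a wash before the CM. After 24 h the cells were washed, kept for 24 h more in fresh medium and lysed. The CM came from bone marrow MSC of 3 horses, aged 3 to 4 years per the study's methods. Each library carries AG1, ORC or PC in a label field named cell line, read here as the MSC donor. No source used here ties these names to the 3 horses, and the MSC libraries of the series are labelled PC, 99 and 92. In the resting group the MSC had no agonist, and in the TLR group they had poly I:C for 2 h before they were washed and conditioned fresh medium for 24 h. The sample labels give the agonist at 10 ng/mL and the design text at 10 µg/mL. Another 5 synoviocyte libraries are used for reference: 3 with CM of MSC activated through STING, the sensor of cytosolic DNA signals (STING-MSC-CM, same donors), 1 with the cytokines and no CM, and 1 with no addition. The last pair had no MSC-CM, although their labels also carry PC and ORC. Because the synoviocytes are those of 1 animal, the replicates are the media of 3 MSC donors, and the spread between them is that of the media and of the wells.

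The libraries with resting MSC-CM held 27231712 to 31660884 reads counted on genes (median 29045450), and those with TLR-MSC-CM 26415910 to 45928986 (median 26431324). A count of 3, taken as the floor, equals 0.0658 to 0.115 CPM (counts per 1000000 counts), and floors cover counting error only. Of 20881 genes listed, 3970 of them by Ensembl identifier alone, 14584 reached a total of 10 counts over the 9 libraries with MSC-CM and were tested. Levels below are CPM scaled by edgeR's TMM method, and where 3 values stand together they are those of donors AG1, ORC and PC, in this order. Where 2 such sets are set against each other, resting MSC-CM comes first and TLR-MSC-CM second. They are not divided by gene length, so they compare a gene between libraries and not 1 gene with another. Log2 differences are TLR-MSC-CM minus resting MSC-CM, with ± their standard error, and p-values are those of edgeR's quasi-likelihood test.

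The cells had the RNA of fibroblasts. The 19 markers of synovial fibroblasts in the table summed to 75992 to 79543 CPM with resting and 63535 to 78460.5 CPM with TLR-MSC-CM, most of it COL1A1 and COL1A2, and VIM, LUM, DCN, FAP, PDGFRB and CDH11 were all at 243 CPM or more in the 6 libraries. HAS1, CD55 and CLIC5, which mark the outer lining layer, stayed at or below 1.503 CPM. Of 19 macrophage markers 9 were at or below 3 counts in all 6 libraries, and their sum was 15.4 to 19.6 CPM with resting and 13.7 to 15.7 CPM with TLR-MSC-CM, most of it CD68, with CSF1R, AIF1, CD163 and PTPRC at 0 to 0.187 CPM. Endothelial markers (6 of 15 at the floor) summed to 90.1 to 97.2 and 91.6 to 98.5 CPM, most of it PECAM1. The endothelial marker ERG was at 5.45 to 12.5 CPM, while CDH5 and CLDN5 were at 0 to 0.0746 CPM. Lymphoid and mast cell markers (10 of 14 at the floor) summed to 13.1 to 14.3 and 13.2 to 13.6 CPM, with CD3D, CD2 and MS4A1 at 0, and adipocyte markers (2 of 10) to 10.6 to 13.4 and 12.9 to 16.4 CPM. Chondrocyte markers (6 of 20 at the floor) were mostly PRELP and COL11A1. They summed to 371 to 601 CPM with resting and 577 to 732 CPM with TLR-MSC-CM. Pericyte and muscle markers (4 of 11), mostly MYH11, summed to 109 to 188 and 169 to 213 CPM. Both of the last sums were lowest in the resting and highest in the TLR library of ORC, and their part in the results below was not tested.

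The libraries of MSC donor ORC stood apart from the rest. Among genes of at least 1 CPM, 1713 differed by 1.5-fold or more between the TLR and resting libraries of ORC, against 135 for AG1 and 167 for PC. On the first principal component of the 9 libraries, which held 48.7% of the variance, resting ORC lay at -25.4 and TLR ORC at 21.4, with STING ORC at 11.5 and the other 6 libraries between -7.36 and 3.78. Resting ORC held the highest of the 9 values in 24.0% and the lowest in 24.2% of 11704 genes with a mean of at least 1 CPM, and TLR ORC in 21.2% and 22.0%. A fit without the 3 libraries of ORC (6 libraries, 14263 genes tested) is therefore set beside the counts of the gene lists and the log2 differences of single genes, for which it stands in square brackets where the text does not spell it out.

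No gene passed a Benjamini-Hochberg adjusted p under 0.05 by the quasi-likelihood test of edgeR, which is 0 of 14584 (0%), and the smallest adjusted p was 0.494. DESeq2 on the same libraries called 2 genes, SCUBE3 and the unnamed ENSECAG00000029537, both higher with TLR-MSC-CM. At an unadjusted p under 0.05, edgeR had 720 genes higher (4.94%) and 745 lower (5.11%), with 329 and 234 when resting ORC was left out, 248 and 284 without TLR ORC and 1196 and 1074 without resting AG1. In 867 genes (5.94%) all 3 TLR values lay above all 3 resting values, and in 844 genes (5.79%) they lay below. Without donor AG1 the counts at an unadjusted p under 0.05 were 1134 higher and 1149 lower, and without PC 474 and 342. Without donor ORC, 202 genes were higher at this p (1.42%) and 160 lower (1.12%), and 1 gene, MMP13, passed an adjusted p under 0.05 (0.00701% of those tested). The shares without ORC are for the whole table and serve below as the background of the same counts in each gene group.

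The genes described first were chosen for groups that do not overlap and, among those, for the smallest p, so that their separation restates the choice. On the higher side, SCUBE3, a secreted glycoprotein, was at 1.70, 0.966 and 1.75 CPM with resting MSC-CM and 3.17, 6.16 and 3.49 CPM with TLR-MSC-CM. Its log2 difference was 1.52 ± 0.30 (adjusted p = 0.494 by edgeR and 0.0056 by DESeq2) and 0.96 without ORC. TNFSF10, the death ligand TRAIL and an interferon-stimulated gene, was at 2.22, 1.72 and 1.82 CPM against 2.90, 7.43 and 3.62 CPM, a log2 difference of 1.26 ± 0.30, or 0.71 without ORC. TLR ORC is the highest library in both. FTH1, the heavy chain of the iron store ferritin, was at 20.0, 17.8 and 19.0 CPM against 25.6, 37.5 and 23.7 CPM, although near-identical copies of this gene make its count uncertain. MELTF, an iron-binding protein of the cell surface, was at 2.51, 1.54 and 2.48 CPM against 3.36, 6.72 and 4.10 CPM. The log2 difference was 0.60 ± 0.14 [0.34] for FTH1 and 1.11 ± 0.29 [0.60] for MELTF, with TLR ORC again the highest library. TGFBR3, the coreceptor betaglycan that binds TGF-β, was at 112, 101 and 113 CPM against 127, 173 and 128 CPM (log2 difference 0.39 ± 0.10 [0.18]). PSME2, a proteasome activator that interferon induces, was at 25.9, 25.2 and 26.7 CPM against 31.8, 32.7 and 30.0 CPM (0.28 ± 0.072 [0.23]), with donor differences of 0.29 for AG1, 0.37 for ORC and 0.17 for PC. The other 4 higher genes were ARRB1 (β-arrestin, which turns off G protein-coupled receptors, log2 difference 0.80 ± 0.21 [0.55]), GABPB2 (a subunit of the transcription factor GABP, 0.48 ± 0.12 [0.43]), LETM2 (a mitochondrial membrane protein, 0.73 ± 0.18 [0.52]) and WFDC8 (a protein of the whey acidic protein family of protease inhibitors, 1.38 ± 0.34 [0.82]). Without ORC the log2 differences of the 10 were 0.18 to 0.96, their direction being fixed by the rule that chose them. ENSECAG00000029537, named here after its values were seen, was at 1.73, 0.680 and 1.54 CPM against 5.39, 7.54 and 3.24 CPM (log2 difference 2.00 ± 0.35 [1.36]).

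On the lower side, E2F1, the transcription factor that drives entry into S phase, was at 19.7, 30.2 and 20.1 CPM with resting and 16.7, 13.03 and 16.0 CPM with TLR-MSC-CM. POLA2, a subunit of the polymerase that primes DNA synthesis, was at 16.2, 23.01 and 17.7 CPM against 14.5, 12.1 and 13.9 CPM. The highest resting value of both genes is that of ORC, the lowest TLR value is that of ORC too, and the log2 differences are -0.61 ± 0.15 [-0.28] and -0.49 ± 0.12 [-0.26]. GAS2L3, a cytoskeletal linker of dividing cells, was at 17.5, 16.2 and 19.3 CPM against 14.0, 11.5 and 13.3 CPM, so that here PC was as far apart as ORC (log2 difference -0.45 ± 0.11, and -0.43 without ORC). RHNO1, a partner of the ATR checkpoint, was at 36.2, 41.1 and 39.2 CPM against 32.9, 26.2 and 31.3 CPM. POLQ, the polymerase of end joining, had a log2 difference of -0.49 ± 0.13 [-0.29], and TCF19, a nuclear protein of S phase, of -0.33 ± 0.081 [-0.23]. The remaining genes were CCDC34 (-0.41 ± 0.091 [-0.33]), C21H5orf34 (-0.71 ± 0.16 [-0.66]), INTS7 of the Integrator complex (-0.34 ± 0.089 [-0.25]) and TXNDC17, a thioredoxin-like protein (-0.27 ± 0.069 [-0.18]). Without ORC the log2 differences of the 10 were -0.66 to -0.18, again with the direction fixed by the rule. In the 10 higher and the 10 lower genes, the cytokines-only library lay beyond all 3 resting values on the side of TLR-MSC-CM. Among all genes whose groups do not overlap it did so in 618 of 867 on the higher side (71.3%) and 625 of 844 on the lower side (74.1%). These genes were chosen on their resting values, and a single library allows no test of this.

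**Figure D1:**
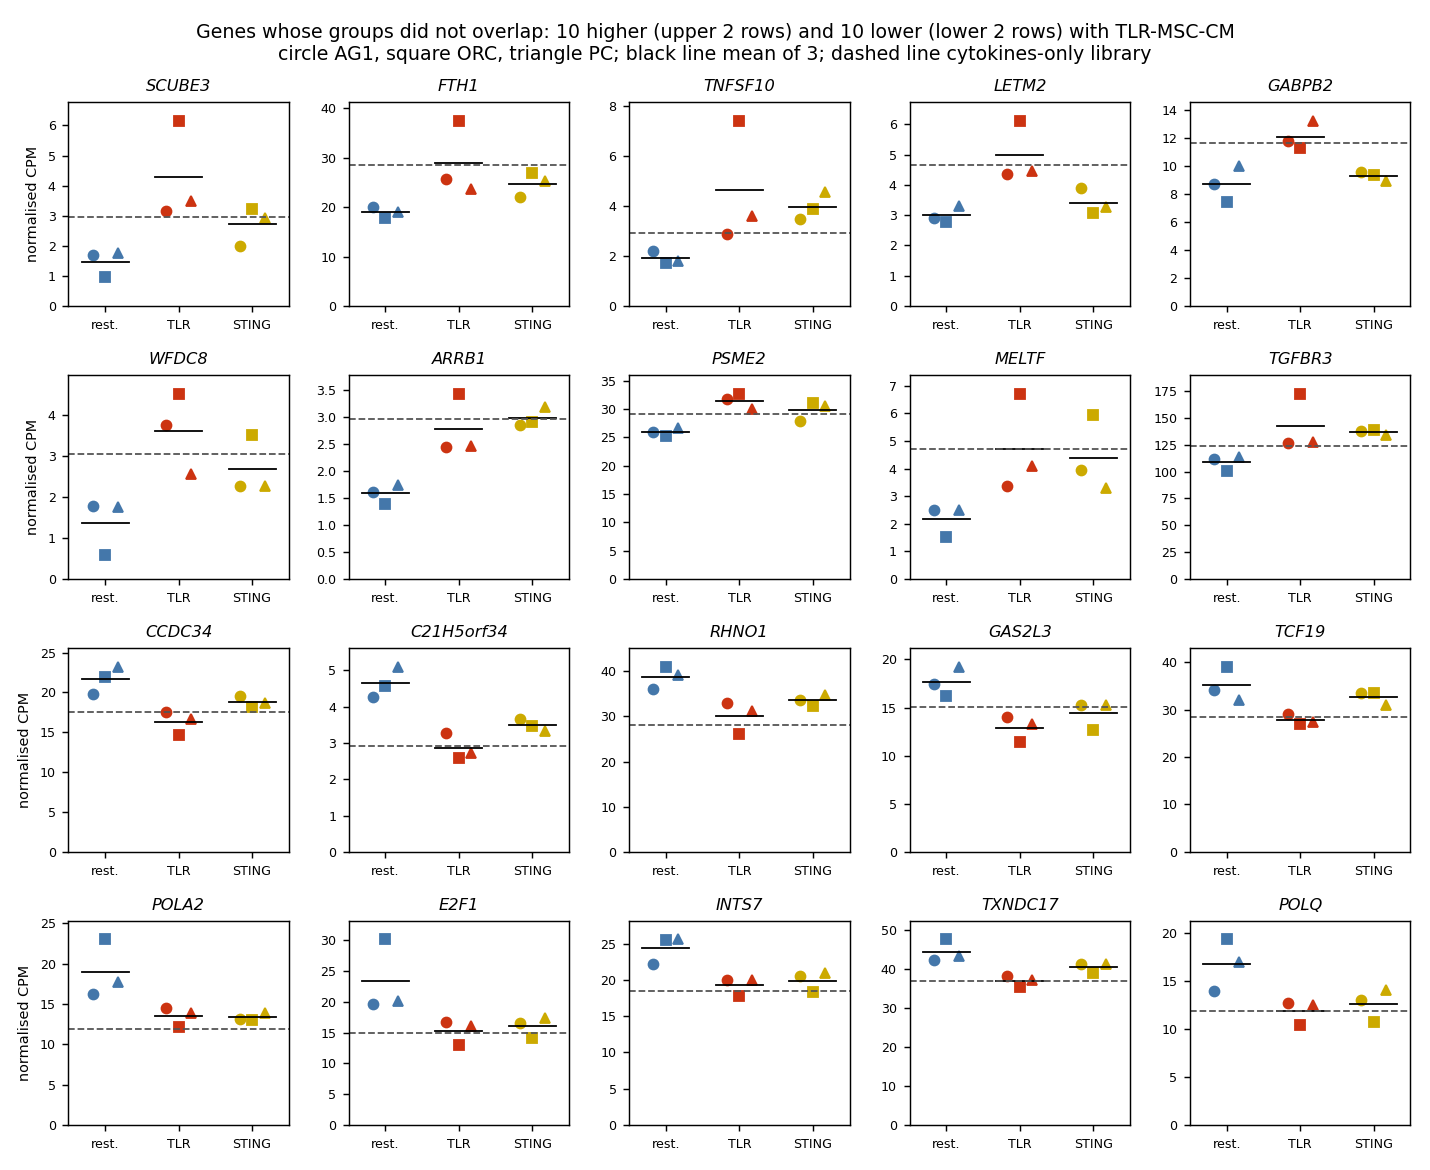
Normalised CPM (vertical axes, from 0) of the 10 genes higher and the 10 genes lower with TLR-MSC-CM that were chosen for groups that do not overlap, in synoviocytes with resting, TLR or STING MSC-CM. Each symbol is 1 library of MSC donor AG1 (circle), ORC (square) or PC (triangle), black lines are means of 3 and the dashed line is the single cytokines-only library; SCUBE3 lies at 0.966 to 1.75 CPM with resting and 3.17 to 6.16 CPM with TLR-MSC-CM.

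Interferon-stimulated genes were higher with TLR-MSC-CM mainly in 1 library. These genes carry the antiviral state: they sense viral RNA, degrade it or block its translation. Of 49 effectors tested, 14 were higher at an unadjusted p under 0.05 by edgeR and 0 lower, against 4.94% and 5.11% of all genes. In 6 the groups did not overlap (5.94% of all genes on the higher side). The median log2 difference of the list was 0.32, against 0.00065 over all genes tested, and within donors the medians were 0.011 for AG1, 0.69 for ORC and 0.062 for PC. TLR ORC held the highest of the 9 values in 43 of the 49. Without ORC, 2 of 46 were higher and 0 lower, with a median of 0.018.

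IFIT3, which binds viral RNA complexes, was at 0.578, 0.286 and 0.804 CPM with resting MSC-CM and 0.650, 8.81 and 0.658 CPM with TLR-MSC-CM. CXCL10, the chemokine that draws activated T cells, was at 0, 1.04 and 0 CPM against 0, 11.9 and 0 CPM. ISG15, a ubiquitin-like modifier, was at 5.17, 4.40 and 4.13 CPM against 5.504, 21.4 and 4.19 CPM. In these 3 genes the TLR library of ORC is far above the other 5, whose values overlap. The log2 differences were 2.55 ± 0.86, 3.52 ± 1.56 and 1.15 ± 0.48, and without ORC -0.071 for IFIT3 and 0.038 for ISG15, while CXCL10 was under the count minimum. The RNA sensors IFIH1 and DHX58 had the same form. IFIH1 was at 1.61, 1.25 and 1.68 CPM against 1.64, 7.54 and 1.97 CPM and DHX58 at 2.86, 1.79 and 2.27 CPM against 2.71, 10.49 and 3.27 CPM. MX1, a GTPase that traps viral nucleocapsids, was at 5.14, 6.15 and 6.16 CPM against 6.15, 17.7 and 5.15 CPM, again with TLR ORC far above the rest. CXCL10, ISG15, IFIH1, DHX58 and MX1 were singled out after their values were seen.

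A smaller set of interferon genes was apart for all 3 donors. TNFSF10, described above, is one of them. TRIM25, the ubiquitin ligase that activates the RNA sensor RIG-I, was at 7.35, 7.91 and 7.73 CPM with resting and 10.4, 14.6 and 8.99 CPM with TLR-MSC-CM (log2 difference 0.55 ± 0.16, and 0.36 without ORC). XAF1, a pro-apoptotic interferon target, was at the floor in the resting libraries, with 0.0963, 0.107 and 0.0350 CPM, and at 0.268, 0.746 and 0.241 CPM with TLR-MSC-CM, at least 4.07-fold higher against the mean floor of the resting libraries. IFI27, the effector with the most reads, was at 126, 192 and 99.6 CPM against 133, 192 and 111 CPM and its groups overlap. Of 28 receptors, transducers and regulators of interferon signalling, 7 were higher at an unadjusted p under 0.05 and 0 lower. Over all genes 4.94% were higher and 5.11% lower at this p. The median log2 difference of the list was 0.15 (1 and 0 without ORC, median 0.010). IFNGR2, a chain of the interferon-γ receptor, was at 45.3, 30.8 and 40.0 CPM against 47.5, 53.5 and 51.6 CPM (log2 difference 0.39 ± 0.11). TLR3 itself was at 0.642, 0.394 and 1.05 CPM against 1.07, 2.09 and 1.23 CPM (1.06 ± 0.38). IRF9, the DNA-binding part of the interferon-activated complex ISGF3, was at 25.2, 21.4 and 22.1 CPM against 26.4, 45.1 and 25.5 CPM (0.49 ± 0.18). The groups are apart in all 3 genes, in TLR3 and IRF9 only just, with ORC at both ends. The log2 differences without ORC were 0.22, 0.46 and 0.13. Of 23 genes of antigen presentation, 3 were higher (PSME2, the immunoproteasome subunit PSMB10 with 0.60 ± 0.20 [0.20] and the peptide trimmer ERAP1 with 0.23 ± 0.11 [0.0091]) and 1 was lower, the chaperone CALR with -0.26 ± 0.10 [-0.056]. These counts stand against the same 4.94% and 5.11% of all genes. Without ORC the list had 1 higher and 0 lower and a median of -0.010.

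**Figure D2:**
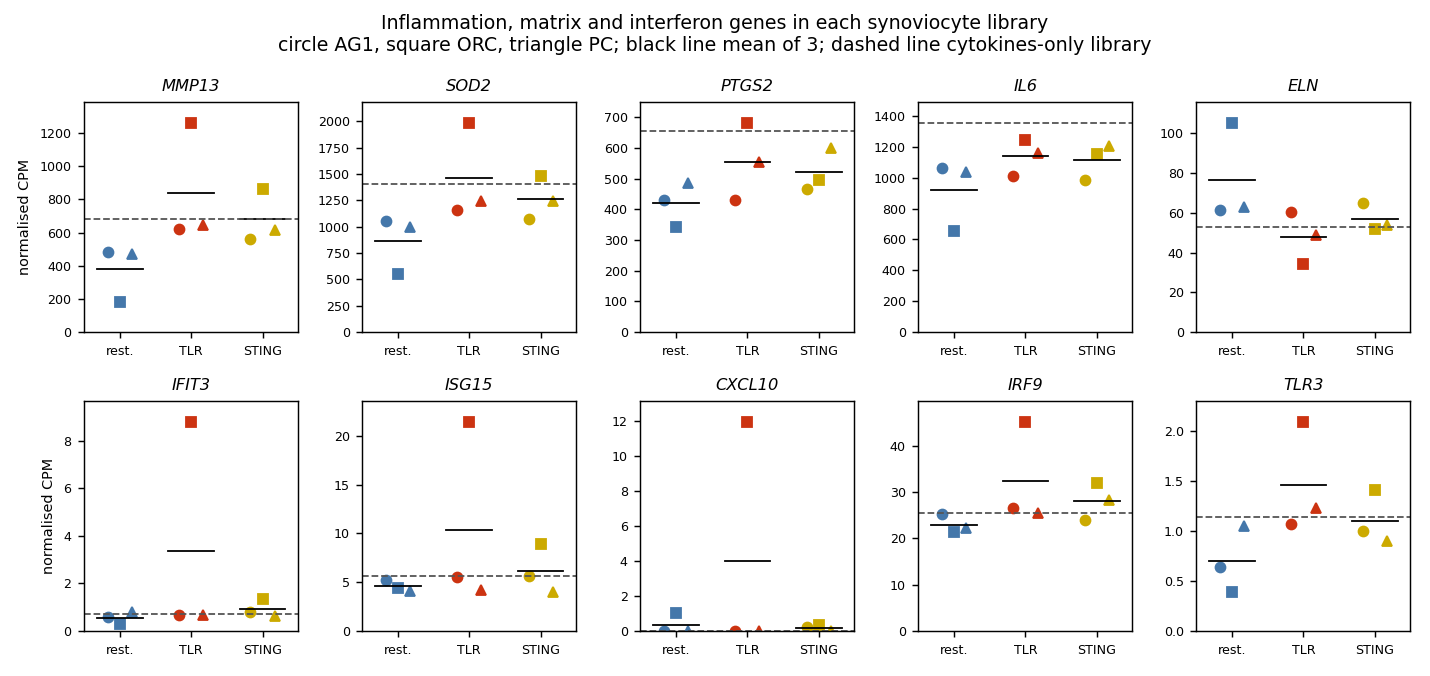
Normalised CPM (vertical axes, from 0) of 10 genes of inflammation, matrix and interferon response in synoviocytes with resting, TLR or STING MSC-CM. Symbols are single libraries of MSC donor AG1 (circle), ORC (square) and PC (triangle), black lines are means of 3 and the dashed line is the cytokines-only library; the TLR library of ORC lies at 8.81 CPM for IFIT3 while the other TLR libraries lie at 0.650 and 0.658 CPM, and for MMP13 all 3 TLR libraries lie above all 3 resting libraries.

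Of 36 cytokines, chemokines and growth factors tested, 3 were higher and 2 lower at an unadjusted p under 0.05 (edgeR), where 4.94% and 5.11% of all genes were, and the median log2 difference was 0.15, or 0.011 without ORC. IL6 was at 1063, 654 and 1039 CPM with resting and 1014, 1242 and 1158 CPM with TLR-MSC-CM, where the cytokines-only library had 1355 CPM and the library with no addition 261 CPM. Its groups overlap, and its log2 difference of 0.31 ± 0.15 was 0.050 without ORC. CXCL6, the chemokine with the most reads, was at 5928, 5578 and 6593 CPM against 5734, 6699 and 6858 CPM (cytokines only 7719, no addition 176). The neutrophil chemokine CXCL8 was at 12.4, 16.5 and 18.3 CPM against 13.1, 14.1 and 15.4 CPM. Neither chemokine separates the groups. TNFSF11, the osteoclast ligand RANKL, was apart at 2.06, 1.57 and 2.10 CPM against 2.48, 2.54 and 3.00 CPM (log2 difference 0.49 ± 0.21, and 0.42 without ORC). IL18, an inflammasome cytokine, was apart at 1.41, 2.08 and 1.89 CPM against 2.52, 2.13 and 3.09 CPM (0.54 ± 0.25, and 0.79 without ORC), here by AG1 and PC more than by ORC. VEGFA, the angiogenic factor, had a log2 difference of 0.21 ± 0.093 [0.034] with groups that overlap. The growth factor TGFB1 was at 67.0, 94.9 and 70.3 CPM against 65.2, 52.9 and 68.4 CPM. IL11, a cytokine of fibroblasts, was at 217, 325 and 243 CPM against 224, 159.8 and 225 CPM. In both, AG1 and PC lie close to their resting values (-0.036 and -0.033 without ORC). IL6 and CXCL8 were singled out after their values were seen.

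Among receptors and decoys of these cytokines, 6 of 24 were higher and 0 lower, against 4.94% and 5.11% of all genes. In 6 the groups did not overlap, against 5.94% of all genes on the higher side. The median log2 difference of the list was 0.13 (1 higher, 1 lower and a median of 0.051 without ORC). IL1R2, the decoy receptor that binds IL-1 without a signal, was at 0.0642, 0 and 0 CPM with resting and 0.344, 0.522 and 0.153 CPM with TLR-MSC-CM. The resting values are at or under the floor, so that the gene was at least 3.30-fold higher, at a level near the floor of detection. TNFRSF21, a death receptor of the TNF family, was at 11.3, 6.19 and 9.23 CPM against 11.96, 14.1 and 11.4 CPM (log2 difference 0.48 ± 0.17 [0.19]). Of 26 NF-κB subunits, inhibitors and targets, 4 were higher and 0 lower, against the same 4.94% and 5.11%. The median of this list was 0.066 (2 and 0 without ORC, median 0.029). SOD2, the mitochondrial superoxide dismutase that NF-κB induces, was at 1058, 548 and 997 CPM against 1161, 1984 and 1243 CPM, with 1402 CPM under the cytokines alone and 573 CPM with no addition. All TLR values lie above all resting values, by 0.75 ± 0.23 on the log2 scale and by 0.23 without ORC. The inhibitor NFKBIE was also apart, at 7.71, 5.55 and 6.51 CPM against 8.52, 8.99 and 9.67 CPM (0.46 ± 0.14, and 0.36 without ORC). The subunit RELB had a log2 difference of 0.32 ± 0.12 [0.14] and NFKBIA, the inhibitor IκBα, of 0.30 ± 0.14 (0.016 without ORC), both with groups that overlap. NFKBIA was chosen after its values were seen.

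Of 17 genes of prostaglandin E2 synthesis, breakdown and reception, 4 were higher and 0 lower at an unadjusted p under 0.05, and 0 and 0 without ORC. Over all genes, with ORC, 4.94% were higher and 5.11% lower. PTGS2, the inducible cyclooxygenase, was at 432, 342 and 487 CPM with resting and 432, 682 and 553 CPM with TLR-MSC-CM (cytokines only 655, no addition 34.4). PLA2G2A, a secreted phospholipase, was at 327, 212 and 293 CPM against 322, 402 and 316 CPM. Both overlap between groups and stayed at nearly the same level for AG1, with log2 differences of 0.40 ± 0.15 and 0.32 ± 0.14 that were 0.11 and 0.044 without ORC. PTGER4, a receptor of prostaglandin E2, was apart at 22.2, 16.2 and 21.5 CPM against 24.0, 28.8 and 24.0 CPM (0.36 ± 0.12), without ORC 0.14. The synthase PTGES overlapped at 509, 437 and 485 CPM against 502, 564 and 490.3 CPM.

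MMP13 had the smallest p among the matrix proteases. This collagenase, which cuts the type II collagen of cartilage, was at 485, 179.9 and 469.7 CPM with resting MSC-CM and 619, 1261 and 643 CPM with TLR-MSC-CM. Under the cytokines alone it was at 683 CPM and with no addition at 113 CPM, and STING-MSC-CM gave 563, 865 and 617 CPM. The TLR values thus lie above the resting values for each donor, in AG1 and PC by a smaller step than in ORC. The log2 difference was 1.15 ± 0.32 in all 3 donors (adjusted p = 0.494 by edgeR) and 0.41 without ORC, where edgeR's quasi-likelihood test gave an adjusted p of 0.0025, on 2 libraries against 2.

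Of 44 matrix proteases and inhibitors, 6 were higher and 4 lower, against 4.94% and 5.11% of all genes, and 1 and 0 without ORC. The median log2 difference of the list was 0.026. MMP14, the membrane collagenase, was at 413, 391 and 419 CPM against 445, 551 and 444 CPM (log2 difference 0.24 ± 0.084 [0.10]). The inhibitor TIMP3 was at 1165, 781 and 1109 CPM against 1181, 1739 and 1228 CPM (0.44 ± 0.15 [0.086]), and in both genes the TLR library of ORC is well above the rest. TIMP1, by contrast, was at 506, 618 and 514 CPM against 492, 429.8 and 483 CPM (-0.22 ± 0.083 [-0.064]), lower for all 3 donors. MMP12, with the most reads of the list, was at 6482, 5647 and 6876 CPM against 6568, 9771 and 7479 CPM (484 CPM with no addition) and overlapped between groups. The aggrecanase ADAMTS5, singled out after its values were seen, was at 313, 316 and 331 CPM against 344, 444 and 349.8 CPM (0.24 ± 0.088, and 0.11 without ORC). ADAMTS14, which trims procollagen, had a log2 difference of -0.96 ± 0.37 and ADAM19 of -0.28 ± 0.11, both with overlapping groups and at -0.11 and -0.059 without ORC.

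Of 65 collagens, fibril proteins and proteoglycans, 4 were higher and 3 lower, shares close to the 4.94% and 5.11% of all genes, the median log2 difference was 0.051, and without ORC 0 were higher and 1 lower. ELN, elastin, was at 61.6, 105 and 62.9 CPM with resting and 60.5, 34.3 and 49.0 CPM with TLR-MSC-CM (143 CPM with no addition), and its groups are apart, with a log2 difference of -0.67 ± 0.20 (-0.19 without ORC). PRELP, a proteoglycan of cartilage and tendon, was at 385, 138 and 313 CPM against 352, 553 and 375 CPM. FMOD, fibromodulin, which binds collagen fibrils, was at 55.4, 21.9 and 42.9 CPM against 47.5, 76.9 and 55.3 CPM. In both the resting library of ORC is far below the rest, and AG1 ran the other way. POSTN, periostin, had a log2 difference of 0.56 ± 0.21 [0.11], the collagen hydroxylase P4HA2 of -0.23 ± 0.091 [-0.072] and the basement membrane protein NID2 of -0.24 ± 0.11 [-0.032]. Of 16 genes of hyaluronan synthesis and binding, 0 were higher and 2 lower: the synthase HAS2, at 7.74, 8.30 and 7.31 CPM against 5.85, 4.74 and 6.38 CPM (-0.45 ± 0.16 [-0.29]), and the receptor HMMR (-0.23 ± 0.083 [-0.14]), which also belongs to the mitotic spindle. HAS2 and HMMR were both apart for all 3 donors, where 5.79% of all genes did not overlap on the lower side. Over all genes 5.11% were lower at this p, and without ORC the list had 0 higher and 1 lower. Of 22 contractile genes 1 was lower, the tropomyosin TPM4 (-0.17 ± 0.076 [-0.11]), a share close to the 5.11% of all genes, and 0 without ORC.

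Of 56 genes of TGF-β, BMP and Wnt signalling, 8 were higher and 4 lower, against 4.94% and 5.11% of all genes. Without ORC 0 were higher and 1 lower, and the medians were 0.059 with ORC and -0.014 without. The Wnt receptor FZD8 (0.63 ± 0.22 [0.12]) and LTBP3, which stores latent TGF-β (0.49 ± 0.17 [0.14]), overlapped between groups. TCF7, a Wnt transcription factor, was lower at 2.54, 4.65 and 2.73 CPM against 2.18, 1.38 and 2.24 CPM (-0.76 ± 0.26, and -0.25 without ORC). LRRC32, the cell-surface anchor of latent TGF-β, had a log2 difference of -0.56 ± 0.21 [-0.28] and FSTL3, an activin antagonist, of -0.34 ± 0.14 [-0.014].

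Of the 25 lists, mitosis had the most genes called lower at the unadjusted p. Of 64 genes of mitosis, 44 were lower at an unadjusted p under 0.05 and 0 higher (edgeR), where 5.11% of all genes were lower. In 17 the groups did not overlap, against 5.79% of all genes on the lower side. The median log2 difference of the 64 was -0.26. Within donors 34 of the 64 were higher for AG1, 0 for ORC and 3 for PC, with medians of 0.0022 for AG1, -0.63 for ORC and -0.20 for PC. Resting ORC held the highest of the 9 values in 42 and TLR ORC the lowest in 62 of them. Without ORC, 2 were lower and 0 higher, against 1.12% and 1.42% of all genes, and the median was -0.091. In bulk RNA, fewer dividing cells and less of these transcripts per cell cannot be told apart.

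The mitotic gene with the smallest p was SPC24, of the kinetochore, at 30.0, 41.2 and 32.8 CPM with resting and 30.5, 22.2 and 26.5 CPM with TLR-MSC-CM (log2 difference -0.39 ± 0.12 [-0.14]). KIF14, a motor of cytokinesis, was at 27.7, 27.2 and 29.2 CPM against 26.1, 18.0 and 22.6 CPM (-0.34 ± 0.11 [-0.23]), and CDC25B, the phosphatase that starts mitosis, at 107.8, 141 and 115 CPM against 104, 77.7 and 99.4 CPM (-0.37 ± 0.12 [-0.12]). The groups are apart for KIF14 and CDC25B and meet in AG1 for SPC24. ANLN, which scaffolds the cleavage furrow and has the most reads of the list, was at 226, 268 and 268 CPM against 231, 165 and 227 CPM, with 196 CPM under the cytokines alone and 146 CPM with no addition.

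Of 54 genes of S phase entry and DNA synthesis, 29 were lower and 0 higher, against 5.11% and 4.94% of all genes. In 10 the groups did not overlap, against 5.79% of all genes on the lower side. The median log2 difference of the 54 was -0.32, and within donors 0.035 for AG1, -0.88 for ORC and -0.16 for PC. Without ORC, 5 were lower and 0 higher, against 1.12% and 1.42% of all genes, with a median of -0.053. Beside POLA2 and E2F1, RRM2, the ribonucleotide reductase subunit that supplies deoxynucleotides, was at 85.1, 108.5 and 92.0 CPM against 81.9, 64.9 and 77.9 CPM (log2 difference -0.35 ± 0.10, and -0.15 without ORC). MCM7, of the replicative helicase and named for its reads, was at 169, 241 and 186 CPM against 169, 121 and 166 CPM (-0.38 ± 0.14, and -0.081 without ORC). The groups are apart in both, in MCM7 with AG1 at nearly the same level. Of 29 p53 targets and inhibitors of the cycle, 0 were higher and 2 lower, against 4.94% and 5.11% of all genes. The 2 were GADD45B (-0.31 ± 0.13 [-0.13]) and RBL1 (-0.22 ± 0.10 [-0.12]). The median of this list was -0.0019, and without ORC 1 was higher and 0 lower. Of 46 growth factor receptors, D cyclins and immediate early genes, 6 were higher and 2 lower, against the same 4.94% and 5.11%. Without ORC 2 of them were higher and 0 lower. INSR, the insulin receptor, was apart at 24.95, 25.01 and 24.7 CPM against 28.4, 30.2 and 28.0 CPM (0.21 ± 0.071 [0.19]), as was SPRED1, an inhibitor of the RAS pathway (0.26 ± 0.086 [0.14]). ETV5, a transcription factor under that pathway, had a log2 difference of 0.40 ± 0.12 [0.26]. CDK4, the partner of the D cyclins, was lower at 121, 131 and 117 CPM against 116, 97.4 and 109 CPM (-0.20 ± 0.075 [-0.081]), and the growth factor receptor MET had -0.20 ± 0.087 [-0.051].

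**Figure D3:**
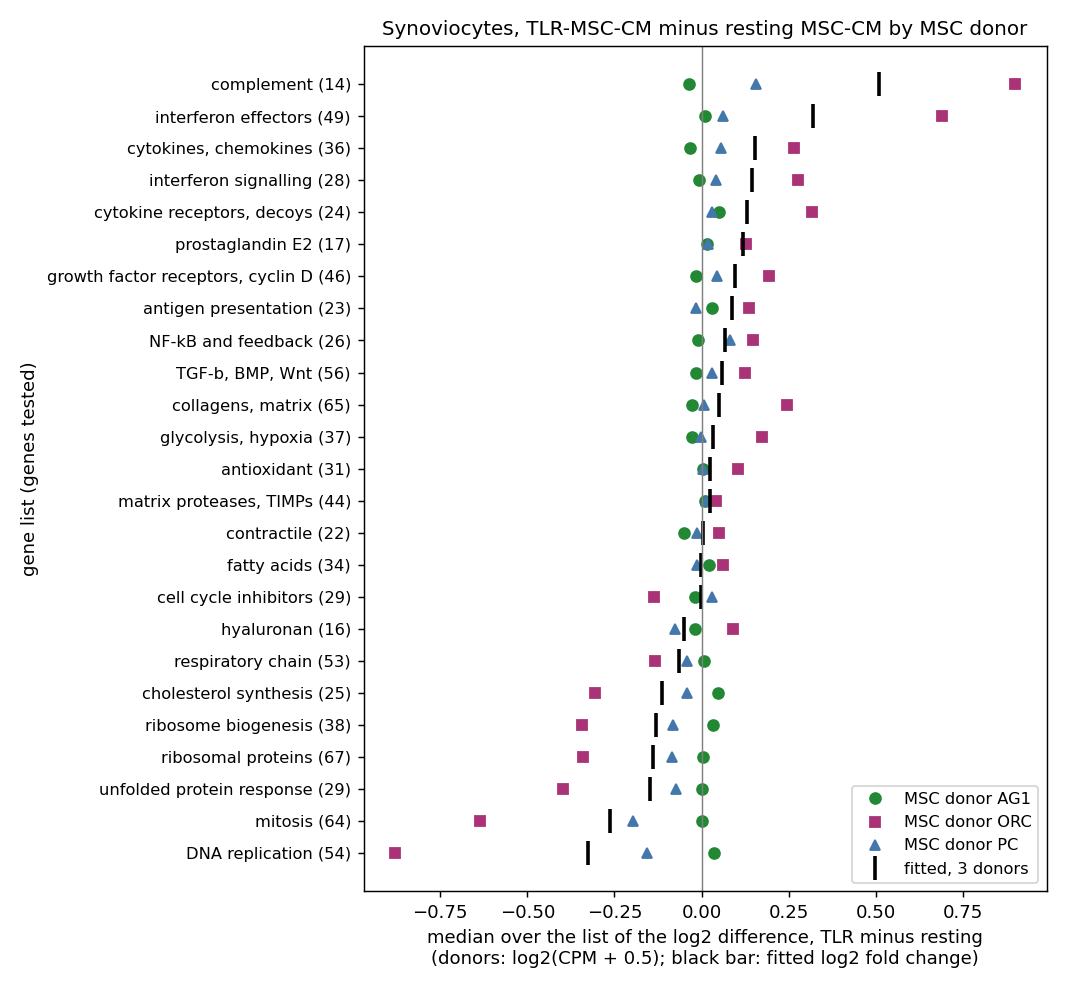
Median log2 difference, TLR minus resting MSC-CM, over the genes of 25 lists (vertical axis, with the number tested), for each MSC donor on log2(CPM + 0.5) and as fitted over the 3 donors (black bars). ORC (square) holds the outermost value in most lists, -0.88 for DNA replication and 0.90 for complement, whereas AG1 (circle) stays between -0.049 and 0.050.

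Genes of growth and protein synthesis leaned the same way as the cell cycle. Of 67 cytosolic ribosomal proteins, 15 were lower and 0 higher, against 5.11% and 4.94% of all genes. In 13 the groups did not overlap, against 5.79% of all genes on the lower side. The median log2 difference of the 67 was -0.14 (within donors 0.0056 for AG1, -0.34 for ORC and -0.084 for PC). RPL28 was at 323, 359.9 and 322 CPM against 308, 257 and 288 CPM (-0.24 ± 0.075 [-0.11]). RPL36 was at 5.72, 5.72 and 4.79 CPM against 4.01, 4.29 and 2.76 CPM (-0.57 ± 0.20 [-0.67]), and RPS15A had a log2 difference of -0.23 ± 0.086 [-0.082]. Ribosomal protein genes have near-identical copies, which makes their counts uncertain. Without ORC, 1 was lower and 0 higher, with a median of -0.035. Of 38 genes of ribosome assembly and translation, 7 were lower and 0 higher (0 and 0 without ORC), against 5.11% and 4.94% of all genes. Among the 7 were the nucleolar proteins NPM1 (-0.26 ± 0.094 [-0.12]), FBL (-0.22 ± 0.087 [-0.052]) and WDR12 (-0.24 ± 0.10 [-0.17]). Of 29 chaperones and stress factors of the endoplasmic reticulum, 9 were lower and 0 higher (0 and 0 without ORC), against the same 5.11% and 4.94%. MANF, a secreted stress protein, was at 104, 147 and 115 CPM against 107.6, 74.4 and 103 CPM (-0.36 ± 0.13 [-0.057]), so that AG1 and PC differed little, and CHAC1, a target of the stress factor ATF4, had -0.44 ± 0.18 [-0.14].

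Of 25 genes of cholesterol synthesis and uptake, 3 were lower and 0 higher, against 5.11% and 4.94% of all genes. The 3 were EBP (-0.30 ± 0.10 [-0.12]), LBR (-0.25 ± 0.085) and CYP51A1 (-0.28 ± 0.12 [-0.050]). The median log2 difference of the list was -0.11, and without ORC 1 was lower and 0 higher. LBR was at 23.9, 24.3 and 24.3 CPM with resting and 22.7, 19.6 and 18.7 CPM with TLR-MSC-CM, lower for each donor (-0.23 without ORC). Of 34 fatty acid genes, 4 were higher and 3 lower, against 4.94% and 5.11% of all genes, and 0 and 0 without ORC. APOE, which carries lipids out of cells, was apart at 0.835, 0.429 and 0.734 CPM against 1.03, 1.68 and 1.18 CPM (0.94 ± 0.33 [0.51]), CPT1A, the gate of mitochondrial fatty acid oxidation, had 0.48 ± 0.18 [0.057] and the carboxylase ACACB 0.23 ± 0.094 [0.16]. The elongase ELOVL5 was apart and lower (-0.22 ± 0.079 [-0.14]), while ELOVL6 (-0.37 ± 0.14 [-0.13]) and the fatty acid carrier FABP5 (-0.78 ± 0.29 [-0.33]) overlapped. Glycolysis and hypoxia genes had 3 of 37 higher and 0 lower, EGLN1 (0.30 ± 0.10 [0.12]), NDRG1 (0.27 ± 0.12 [0.037]) and VEGFA, and the respiratory chain 0 of 53 higher and 5 lower, among them ATP5MC1 (-0.26 ± 0.10 [-0.070]), ATP5PO (-0.15 ± 0.060 [-0.11]) and NDUFB6 (-0.19 ± 0.081 [-0.062]). Over all genes 4.94% were higher and 5.11% lower, and neither of these 2 lists had a gene at this p without ORC. Of 31 antioxidant genes, 6 were higher and 0 lower, against 4.94% and 5.11% of all genes, and 2 and 0 without ORC. SQSTM1, the autophagy receptor that also releases NRF2, was at 310.2, 269 and 304 CPM against 336, 417 and 333 CPM (0.30 ± 0.093 [0.13]), apart for all 3 donors, and the NRF2 target NQO1 had 0.32 ± 0.12 [0.12].

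Complement had the highest median log2 difference of the 25 lists, 0.51 over 14 genes. Of these, 5 were higher and 0 lower, against 4.94% and 5.11% of all genes. C1R, a protease that starts the classical pathway, was at 119, 47.2 and 105 CPM against 125, 211 and 122 CPM. Its partner C1S was at 97.3, 37.6 and 79.7 CPM against 93.4, 170.5 and 96.3 CPM. CLU, clusterin, an inhibitor of the terminal complex, was at 3805, 1843 and 3348 CPM against 3767, 5668 and 3841 CPM. In all 3 the resting library of ORC lies below the other 5 and the TLR library of ORC above them, and AG1 and PC differ little. Within donors the median of the list was -0.037 for AG1, 0.90 for ORC and 0.15 for PC. Without ORC, 0 genes were higher and 0 lower, and the log2 differences of C1R, C1S and CLU were 0.14, 0.10 and 0.091 against 0.75 ± 0.27, 0.74 ± 0.28 and 0.56 ± 0.22 with it.

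The levels of whole lists place the 6 libraries among the other synoviocyte libraries. For mitosis the mean of log2(CPM + 0.5) was 5.59, 5.78 and 5.71 with resting, 5.59, 5.13 and 5.53 with TLR and 5.55, 5.39 and 5.49 with STING-MSC-CM, 5.34 under the cytokines alone and 5.18 with no addition. For interferon effectors it was 2.64, 2.696 and 2.64, then 2.700, 3.66 and 2.67, then 2.86, 2.84 and 2.75, with 2.74 and 2.81 in the single libraries. The cytokines-only library lies below all 3 resting libraries for mitosis and above them for interferon effectors, and within the range of the TLR libraries for both. Complement ran from 3.26 in resting ORC to 4.15 in TLR ORC, with 3.92 under the cytokines alone. The single libraries have no replicates and were not tested.

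**Figure D4:**
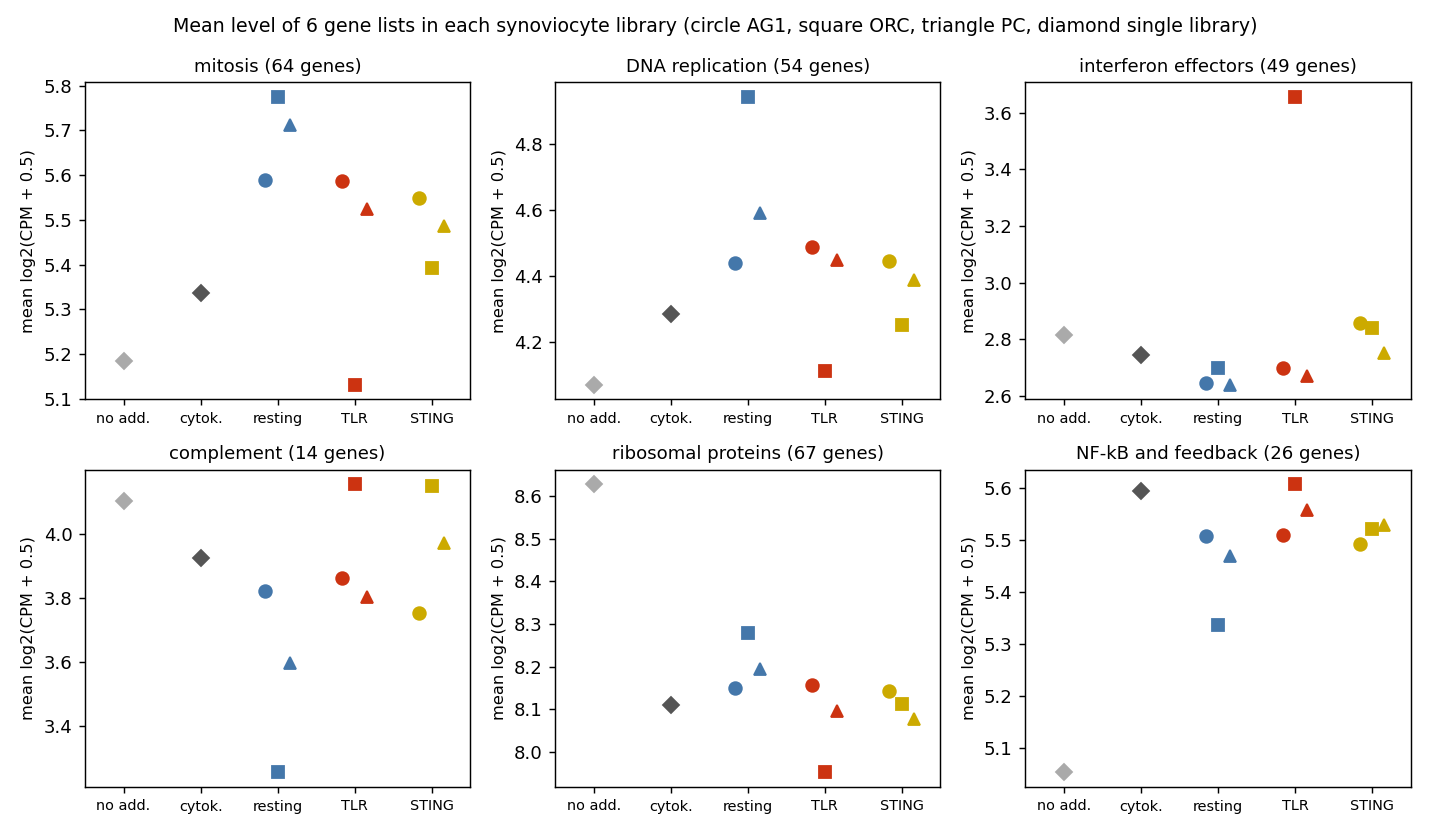
Mean of log2(CPM + 0.5) over 6 gene lists (vertical axes, each with its own range) in the 11 synoviocyte libraries, by what the cells received. Circles are MSC donor AG1, squares ORC, triangles PC and diamonds the single libraries with no addition and with cytokines only; TLR ORC is lowest for mitosis at 5.13 and highest for interferon effectors at 3.66, and resting ORC is highest for mitosis at 5.78.

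The thresholds that the study used for its volcano plots, an unadjusted p of at most 0.05 and a log2 difference of at least 2 in either direction, were passed by 40 genes on the higher side (0.274%) and 31 on the lower side (0.213%). Nearly all of them are scarce transcripts. In 34 of the 40 and 28 of the 31, the 3 libraries of 1 group were all at or below 3 counts, and in 1 of each both groups were. Only 2 of the 40 and 0 of the 31 had a mean of 1 CPM in either group. With MSC donor as a block in the fit 24 and 24 passed, with a prior count of 2 in place of edgeR's default 6 and 0, after a stricter expression filter 3 and 1, and without TLR ORC 35 and 55. The smallest p on the higher side was that of PLXNC1, a receptor of semaphorin 7A, at 0, 0 and 0 CPM with resting and 0.115, 0.187 and 0.175 CPM with TLR-MSC-CM, at least 1.54-fold higher. MAPK4, an atypical MAP kinase, was at 0.225, 0.0716 and 0.140 CPM against 0.420, 1.23 and 0.438 CPM. FOXJ1, the regulator of motile cilia, was at 0.0963, 0.143 and 0.140 CPM against 0.229, 0.560 and 0.745 CPM, and IL1R2 and XAF1 come next. On the lower side DIRAS3, a RAS-like GTPase, was at 0.674, 0.608 and 0.315 CPM against 0.0382, 0.149 and 0.1096 CPM. The mucosal chemokine CCL28 was at 0.482, 0.286 and 0.350 CPM against 0.0764, 0.149 and 0.0219 CPM. P2RY11, a receptor of ATP, was at least 1.64-fold lower, HHIP, which binds hedgehog ligands, at least 2.02-fold and SYCE3, of the meiotic synaptonemal complex, at least 2.10-fold. All of these were higher or lower for each of the 3 donors, at levels of a few reads.

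APOL6, an interferon-induced apolipoprotein, was at 0, 0 and 0 CPM with resting and 0.0382, 0.784 and 0.0219 CPM with TLR-MSC-CM, and PRKCZ, the atypical protein kinase C zeta, at 0, 0 and 0 CPM against 0.0764, 0.299 and 0.0877 CPM. Both had no read in the resting libraries, most of their TLR reads are those of ORC, and they were at least 2.73-fold and 1.499-fold higher against the floor. Neither reached 10 counts in total without the ORC libraries.

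CM of the same MSC donor labels was also given to chondrocytes and macrophages. Per the study's methods, the chondrocytes came from femoropatellar cartilage and the macrophages from blood monocytes. Both had IL-1β and TNF-α, and the study's overview has all joint cells from a single donor horse. The CM was diluted in macrophage medium for the macrophages, so there cell type and base medium cannot be told apart. The difference between cell types was tested as an interaction over 12 libraries each. Against chondrocytes, 233 of 14894 genes differed at an unadjusted p under 0.05 (1.56%) and 0 at an adjusted p under 0.05 (0%) by edgeR's quasi-likelihood test. Against macrophages, 618 of 15957 did (3.87%) and again 0 passed adjustment (0%). With MSC donor as a block these unadjusted counts were 414 and 977, and 0 passed adjustment. Without the ORC libraries of both cell types, 283 genes differed from chondrocytes (1.95%) and 459 from macrophages (2.93%), and leaving out resting ORC of the chondrocytes gave 410 and TLR ORC of the macrophages 951. Of the 64 mitosis genes, 37 differed at the unadjusted p between synoviocytes and macrophages, and of the 54 DNA replication genes 25, against 0 and 1 between synoviocytes and chondrocytes. Without ORC in both cell types, 41 of the 64 and 10 of the 54 differed from macrophages and 0 and 0 from chondrocytes. The median log2 difference of mitosis was -0.26 in synoviocytes, -0.12 in chondrocytes and 0.32 in macrophages, where the donors gave 0.66 for AG1, -0.052 for ORC and 0.26 for PC. For mitosis the donor with the widest difference is thus ORC in synoviocytes and AG1 in macrophages. For interferon effectors 4 of 49 differed from macrophages and 2 from chondrocytes, with medians of 0.32 in synoviocytes, 0.042 in chondrocytes and -0.095 in macrophages. The macrophage medians of this list by donor were 0.18 for AG1, -0.42 for ORC and 0.028 for PC. Here ORC was the widest in macrophages too, with the sign opposite to its 0.69 in synoviocytes. TNFSF10 had log2 differences of 1.26, -0.51 and -0.066 in the 3 cell types, in the same order, and the difference between synoviocytes and macrophages had an unadjusted p of 0.0033 and an adjusted p of 1.00 by edgeR.

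**Figure D5:**
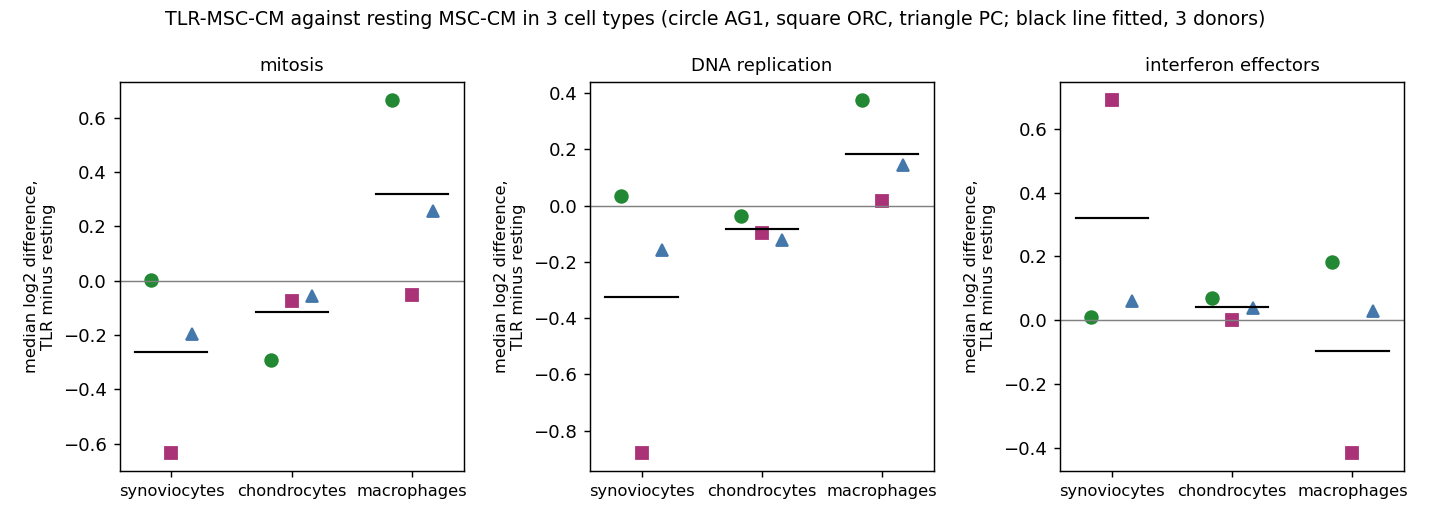
Median log2 difference, TLR minus resting MSC-CM (vertical axes), over the mitosis, DNA replication and interferon effector lists in synoviocytes, chondrocytes and macrophages that had CM of the same MSC donor labels. Symbols are MSC donors AG1 (circle), ORC (square) and PC (triangle) and black lines the fitted median over 3 donors; for mitosis the ORC value is -0.63 in synoviocytes and -0.052 in macrophages.

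STING-MSC-CM shares its resting libraries with the comparison above, so its values are only set beside those above. Against the same resting libraries, the median log2 difference of mitosis was -0.21 with STING-MSC-CM (within donors -0.037 for AG1, -0.39 for ORC and -0.22 for PC), that of DNA replication -0.33, that of interferon effectors 0.13 and that of complement 0.50. IFI27 was at 225, 153 and 187 CPM and IFIT3 at 0.814, 1.33 and 0.645 CPM with STING-MSC-CM.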

How the data were processed

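Polyadenylated RNA was sequenced as paired 150 base reads. The deposited values are whole-number counts of reads per gene, which the authors made with Cutadapt 1.12, STAR and HTSeq 0.11.0 on the horse build EquCab3.0, and which are not normalised. In the table as deposited, 31 values of 1000000 or more were written to 3 significant digits.

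Columns were matched to samples by their names, and groups were taken from the labels. Genes that reached a total of 10 counts in the 9 synoviocyte libraries with MSC-CM were tested with edgeR 4.0.16 (R 4.3.3): TMM scaling, a model with 1 mean per medium, the quasi-likelihood test of TLR minus resting MSC-CM and Benjamini-Hochberg adjustment over all genes tested, with thresholds of 0.05. Groups of 3 against 3 cannot give an exact permutation p below 0.1, so single values were not tested that way. The p-values measure the spread between media of 3 MSC donors on the cells of 1 horse. Differences between cell types were tested as an interaction in 1 fit per pair of cell types. Donor differences used log2(CPM + 0.5). DESeq2, the authors' tool, was run as an alternative (version 1.42.0), beside another scaling, other filters, a larger prior count, only the 6 libraries, MSC donor as a block, each library or donor left out, and, added after seeing the data, robust dispersion and the interactions without ORC. The script was tested on simulated data.

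Genes were named by rule: the 10 with the smallest p in each direction whose groups did not overlap and had means of at least 1 CPM, the 5 with the smallest p in each direction past the thresholds of the study's volcano plots, up to 3 per list and direction at an unadjusted p under 0.05, the member of a list with the most reads, and IFIT3, IL1R2, APOL6 and PRKCZ, which the study's text discusses. Other genes are said to be chosen after their values were seen. The comparison, the 25 gene lists, the 7 lists of cell type markers and the rule were chosen with earlier results of these data known. Genes not in the table were not analysed here, and some genes that the rule names are not reported here.

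Resting and TLR libraries of the same donor label, read as the MSC donor, share the animal that gave the MSC, so the donors pair the media, as the study's text also treats them. The correlation of their deviations from the group means was -0.240 for AG1, -0.407 for ORC and 0.0793 for PC. Figures were drawn with matplotlib 3.10.9.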

Additional observations from a re-analysis of the deposited data

How the results depend on the processing

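The replicates are media of 3 MSC donors on the cells of 1 horse, so the tests see no spread between horses that give synovium, and the depth limits genes near 3 counts. No gene passed an adjusted p under 0.05 in the 9 libraries by edgeR, under DESeq2's size factors, a stricter filter, the 6 libraries alone, a larger prior count, robust dispersion or any single library left out. With no filter 1 gene passed (ENSECAG00000029537), with DESeq2 2 (and SCUBE3), and without donor ORC 1 (MMP13). With the MSC donor as a replicate block, which pairs the media, 0 genes passed, 556 were higher and 592 lower at an unadjusted p under 0.05, and 24 and 24 passed the study's thresholds. The filter on expression left 3 and 1 genes past those thresholds, the prior count of 2 left 6 and 0, and DESeq2 27 and 23. The 6 libraries alone gave 562 higher and 489 lower. Without donor ORC, 202 genes were higher and 160 lower, without AG1 1134 and 1149, and without PC 474 and 342. Leaving out single libraries gave 248 to 1196 higher and 234 to 1074 lower, and 32 to 51 and 25 to 55 past the study's thresholds. Against chondrocytes and macrophages the block gave 414 and 977 genes at an unadjusted p under 0.05, and leaving out ORC in both cell types, an alternative chosen after seeing the data, 283 and 459. Of 1470 values of genes given here under other settings, 3 reversed, all without donor ORC: IFIT3 at -0.071, MX1 at -0.0070 and PTGES at -0.00068. Of 809 values with 1 library left out, 5 reversed. IFI27 ranged from -0.19 (without TLR ORC) to 0.36 and was also below 0 without resting AG1 (-0.0039) and resting PC (-0.13). MX1 ranged from -0.050 (without TLR ORC) to 1.04, and the fitted value of CXCL10 from -6.46 (without TLR ORC, the other TLR libraries having no read) to 9.95. Of 544 list medians 61 moved by more than the spread between donors. The cause of the other changes was not tested.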
